A study of Mus musculus with 96 samples.

Results

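The genes described here are the neighbours of Igf1 on mouse chromosome 10: protein-coding and long noncoding genes whose mm10 start coordinate lies between 82860000 and 92940000, about 5 Mb to either side of Igf1, which itself is left out. The annotation places 102 such genes there, and 99 of them are in the count table. Of those, 60 had a mean of at least 1 CPM (counts scaled to a common library total) over the 48 libraries of VIP nuclei and were kept, 50 protein-coding and 10 long noncoding, out of 16204 genes of these kinds that reached the same level genome-wide. The other 39 fell under that level. Gm17249, at a mean of 1.13 CPM, lies just inside it, and A230060F14Rik, at 0.87 CPM, just outside. All 60 were tested in every comparison.

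The libraries hold nuclear RNA of adult mouse visual cortex. The mice were Igf1-E1 fl/fl, Igf1-E23 fl/fl or Igf1-E123 fl/fl, each crossed to VIP flp/wt, so that every group carried floxed Igf1 enhancers and the recombinase Flp driven from the Vip locus, controls included. A virus, AAV-Syn1-fDIO-mScarlet-KASH-2a-Cre or its dCre counterpart with inactive Cre, was injected into visual cortex at 55 to 60 days of age. Its payload is transcribed from the neuronal Syn1 promoter and switched on by Flp, which limits Cre to infected VIP cells. The mice went into darkness 3 days after injection, stayed there for 10 to 12 days, and were taken in the dark or after 1 h of light. VIP nuclei and total nuclei were sorted separately, with 50 to 100 nuclei per library. For line E1 the VIP fraction counts 5 libraries of light dCre, 3 of dark dCre, 4 of light Cre and 5 of dark Cre. All groups of lines E23 and E123 have 4, but for 3 in dark Cre of line E123, and the total fraction repeats these numbers. Counts summed to between 1559883 and 9122515 per VIP library. The labels call the replicates biological without naming animals, so the p-values measure the spread between these libraries. Reads were counted per gene, and positions of the enhancers were not used. How far Cre removed the enhancers, and whether they lie within a neighbouring gene, is therefore not known from these files. Distances below are measured from the start of Igf1. As a check of the sort, 13 VIP interneuron markers summed to between 2519 and 25922 CPM in each VIP library and to between 256 and 1059 CPM in each total library, and each marker was detected in every VIP group.

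An enhancer is a stretch of regulatory DNA that raises transcription of a gene on the same chromosome, often across other genes. Contacts between enhancers and promoters form mostly within topologically associating domains, and a single enhancer can serve several genes of its neighbourhood. Igf1 encodes insulin-like growth factor 1, which VIP interneurons release in an activity-dependent way. Whether Cre against dCre also changes neighbours of the deleted enhancers is the question taken up below.

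3 of the 60 neighbours passed the test (edgeR's quasi-likelihood test, Benjamini-Hochberg adjusted p under 0.05 over all genes) when Cre was compared with dCre over all lines and light conditions, where 3.74% of all genes did: Igf1os, Hsp90b1 and Slc25a3. Their promoters are shown because they are the starts of the only members called in that comparison. Each runs 5′ to 3′ on the strand of its gene and holds bases before the RefSeq start in GRCm38.p6, where 45 of the 60 members matched an entry. Igf1os, annotated as an antisense noncoding RNA, starts inside Igf1, in an intron between exons that end at 87861385 and begin at 87864731. Its promoter is at chr10:87863394-87863643, minus strand. Hsp90b1, at chr10:86705510-86705694, minus strand, encodes the HSP90 chaperone of the endoplasmic reticulum (GRP94), which folds secreted proteins, insulin-like growth factors among them. Slc25a3, at chr10:91124060-91124217, minus strand, encodes the phosphate carrier of the inner mitochondrial membrane. Capitals mark matches on either strand to AP-1 (TGACTCA), CRE (TGACGTCA), the CCAAT box (CCAAT), the endoplasmic reticulum stress element ERSE, the GC box (GGGCGG) and the promoter box TATAAA.
Igf1os: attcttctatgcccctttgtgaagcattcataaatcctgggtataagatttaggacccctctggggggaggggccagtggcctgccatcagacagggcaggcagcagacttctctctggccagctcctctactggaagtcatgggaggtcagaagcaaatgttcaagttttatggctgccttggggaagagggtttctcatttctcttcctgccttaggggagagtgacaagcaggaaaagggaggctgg
Hsp90b1: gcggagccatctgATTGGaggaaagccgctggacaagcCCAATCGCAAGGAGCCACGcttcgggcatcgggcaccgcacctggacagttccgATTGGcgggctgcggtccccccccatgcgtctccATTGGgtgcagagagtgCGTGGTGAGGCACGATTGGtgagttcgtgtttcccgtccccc
Slc25a3: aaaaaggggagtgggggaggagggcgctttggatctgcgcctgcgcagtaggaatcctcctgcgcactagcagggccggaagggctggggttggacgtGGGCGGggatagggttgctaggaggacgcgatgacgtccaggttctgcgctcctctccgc
The Hsp90b1 sequence holds 2 ERSE matches and 5 CCAAT boxes. 2 of those CCAAT boxes are parts of the ERSE matches. In the first 185 bases of the 32851 RefSeq promoters, counted from the far end, 0.0883% held at least 1 ERSE match and 25.9% at least 1 CCAAT box. Over 250 bases, 33.8% held a CCAAT box. Slc25a3 holds 1 GC box, and 17.8% of promoters hold at least 1 in their first 158 bases. The Hsp90b1 and Slc25a3 stretches stop at annotated exons, while these shorter rates leave out the bases nearest each RefSeq start. The 250 bases of Igf1os hold no match to any of the 6 motifs. A match is a stretch of letters, and binding was not measured.

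Igf1os was the only member called lower in VIP nuclei with Cre over all lines and light conditions. The gene spans 87826377 to 87863381 on the minus strand, overlaps the first 5117 bp of Igf1 and shares no exon base with it. The library chemistry does not mark strand, so intronic RNA of Igf1 that was counted over an Igf1os exon cannot be told apart from Igf1os itself. With dCre, 24 VIP libraries held between 39.4 and 242 CPM of Igf1os (median 113), and with Cre, 24 libraries held between 39.4 and 119 CPM (median 74.97). The means were 118 ± 53.9 and 76.7 ± 24.9 CPM (SD, n = 24 each), and the ranges overlapped at the low end. The fitted log2 fold change was −0.54 ± 0.125 (SE; 95% interval −0.79 to −0.29; adjusted p = 0.0189). Igf1 itself fell from 659.7 ± 168 to 436 ± 155 CPM, a log2 fold change of −0.61 ± 0.0955 (adjusted p = 0.000949). The Igf1os call was kept when any 1 of the 48 libraries was left out. It was lost, at −0.70 (adjusted p = 0.0713), with a covariate for how much RNA of a library came from long genes (the length index), and at −0.65 (0.0743) without the 4 libraries of highest index.

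By line, the level of Igf1os after light was lowest with Cre in line E123. There, Cre libraries held 39.4, 52.4, 48.6 and 59.1 CPM and dCre libraries 124.8, 79.1, 122.7 and 74.6 CPM. Every Cre library lay below every dCre library, as did those of Igf1, with 2.99% of all tested genes showing such a gap. The length index of these Cre libraries also lay wholly below that of the dCre libraries, as given below. In line E1 after light, Cre libraries held 119, 96.6, 76.7 and 83.1 CPM and dCre libraries 115, 118, 183, 137 and 238 CPM. In line E23 after light, Cre libraries held 113, 104.9, 81.2 and 118 CPM and dCre libraries 82.8, 172, 242 and 144 CPM. In both of these lines 1 or more Cre libraries reached into the dCre range.

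In the dark the estimates of Igf1os lay below 0 in lines E1 and E23 and above 0 in line E123. A difference between lines in the dark alone was not tested. Line E1 held 58.6, 73.2, 58.3, 104 and 65.1 CPM with Cre and 82.7, 65.4 and 110.1 CPM with dCre. Line E23 held 44.6, 77.6, 57.9 and 100.6 CPM with Cre and 92.4, 171, 90.2 and 147 CPM with dCre. The groups overlapped in both lines. In line E123 in the dark, Cre libraries held 41.2, 72.8 and 94.97 CPM and dCre libraries 39.4, 50.1, 83.9 and 62.7 CPM, so that the fitted change was 0.25 ± 0.327. The 5 other single comparisons of Igf1os lay between −1.01 ± 0.306 (line E123 after light) and −0.26 ± 0.310 (line E1 in the dark), and no single comparison passed adjustment.

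**Figure D1:**
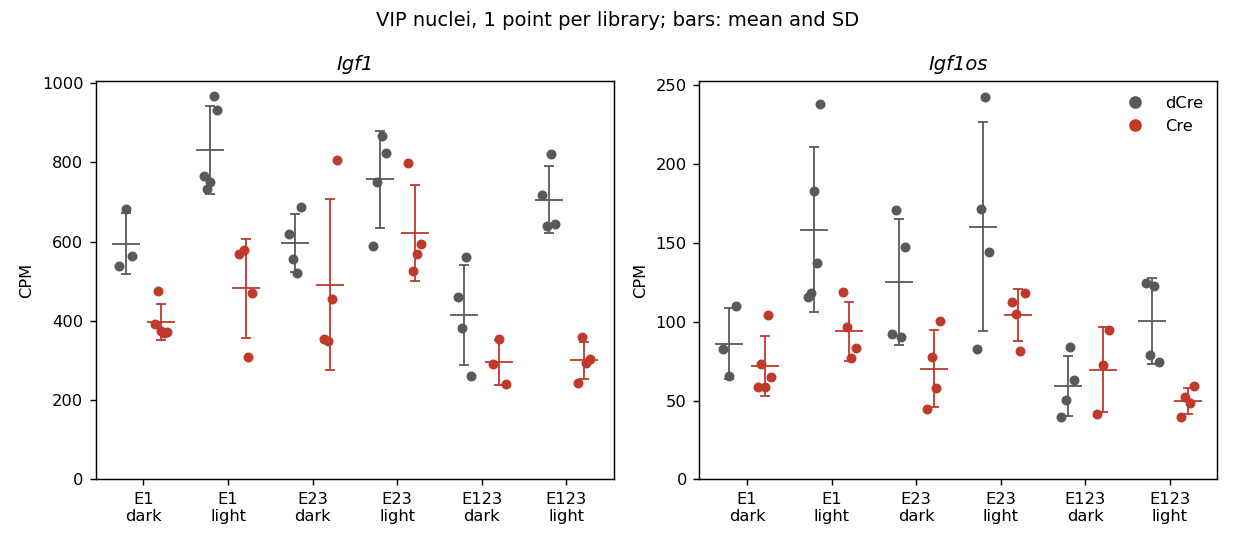
Igf1os in each VIP library (CPM) by line and light condition, with dCre and Cre side by side; points are libraries and bars group means. In line E123 after light the 4 Cre libraries, from 39.4 to 59.1 CPM, sit below the 4 dCre libraries, from 74.6 to 124.8 CPM; in the dark the same line's groups overlap.

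Averaged over light and dark, Igf1os changed by −0.51 ± 0.211 in line E1 (adjusted p = 0.161), by −0.73 ± 0.215 in line E23 (adjusted p = 0.615) and by −0.38 ± 0.225 in line E123 (adjusted p = 0.427). The corresponding values of Igf1 were −0.68 (adjusted p = 0.030), −0.28 ± 0.163 (0.876) and −0.86 (0.0418). The order of the lines thus differed between both genes, but the line differences of Igf1os were not called: line E123 minus line E23 was 0.35 ± 0.309 (adjusted p = 0.702). Light minus dark was −0.51 ± 0.250 (adjusted p = 0.532). As a share of Igf1 counts, Igf1os ran from a mean of 14.1% in light dCre libraries of line E123 to 24.7% in dark Cre libraries of that line, which had the widest spread (14.2% to 39.4%, n = 3).

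Hsp90b1 and Slc25a3 were the members called higher with Cre, and both had their lowest levels in dark dCre libraries. Hsp90b1 spans 86690209 to 86705509, 1.15 Mb upstream of Igf1, and Slc25a3 spans 91116574 to 91124059, 3.27 Mb downstream. Hsp90b1 held 27.2 to 376 CPM in dCre libraries (median 195) and 102 to 594 CPM in Cre libraries (median 266). Slc25a3 held 46.3 to 567.9 CPM in dCre libraries (median 270.1) and 163 to 586 CPM in Cre libraries (median 399). Both pairs of ranges overlapped. The log2 fold changes were 0.61 ± 0.136 for Hsp90b1 (95% interval 0.34 to 0.88) and 0.67 ± 0.150 for Slc25a3 (0.37 to 0.98), each with an adjusted p of 0.0175. Without dark Cre replicate 3 of line E123 they were 0.52 (adjusted p = 0.0506) and 0.58 (0.0502), and without any other single library both calls were kept. Vip, the neuropeptide gene of these cells on the same chromosome, rose by 0.83 ± 0.182 (adjusted p = 0.0175).

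For both genes the rise was uneven across conditions. In line E1 in the dark, Hsp90b1 stood at 27.2, 71.2 and 147 CPM with dCre and at 332, 249, 299, 363 and 258 CPM with Cre. Slc25a3 in the same libraries stood at 65.0, 125 and 183 CPM with dCre and at 307, 293, 433, 500.0 and 398 CPM with Cre. Each Cre library exceeded each dCre library for both genes, and the changes were 1.87 ± 0.367 (adjusted p = 0.00238) and 1.64 ± 0.399 (adjusted p = 0.00835). After light in line E1, Hsp90b1 held 214, 299, 344, 244.6 and 335 CPM with dCre and 254, 288, 243 and 332 CPM with Cre, a change of −0.04. The groups overlapped there.

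In line E23 Hsp90b1 changed by 0.28 after light and 0.10 in the dark, and Slc25a3 by −0.37 and −0.14, values of both signs. In line E123 in the dark, Hsp90b1 stood at 67.7, 50.1, 112 and 109 CPM with dCre and at 102, 133 and 270 CPM with Cre. Slc25a3 stood there at 49.5, 46.3, 146 and 250.5 CPM with dCre and at 193, 293 and 584 CPM with Cre. In these dark E123 libraries the groups overlapped for both genes, and neither change (0.99 ± 0.353 and 1.54 ± 0.391) passed adjustment. After light in that line, Slc25a3 held 239, 219.9, 226 and 142 CPM with dCre and 399, 365, 586 and 258 CPM with Cre, without overlap, a change of 0.96 ± 0.365 (adjusted p = 0.557).

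**Figure D2:**
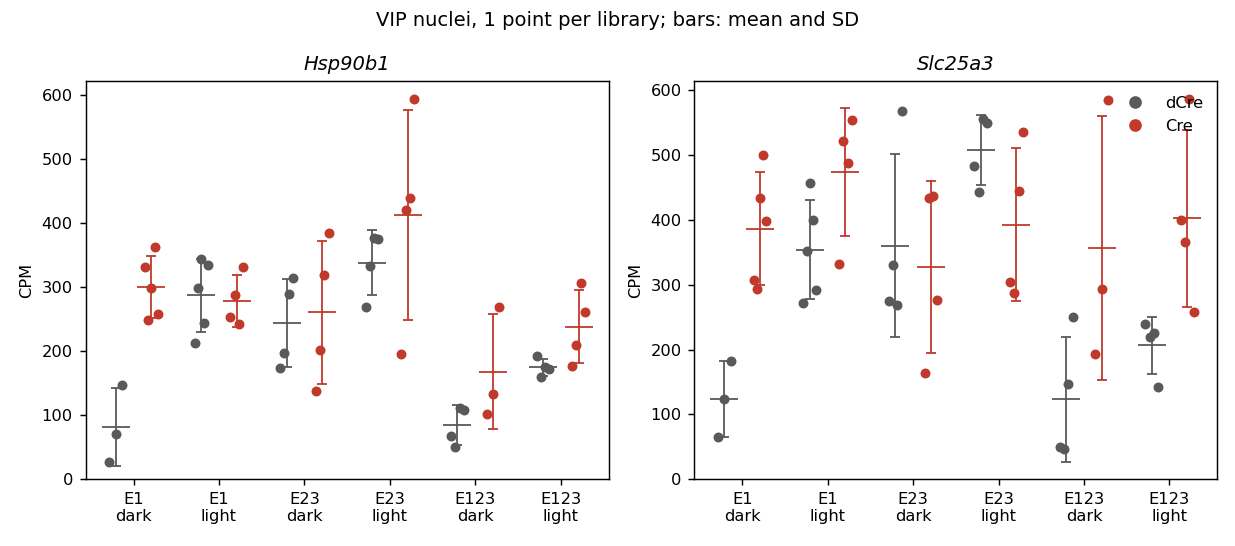
Hsp90b1 and Slc25a3 in each VIP library (CPM) by line and light condition, dCre and Cre side by side; points are libraries and bars group means. The 4 lowest points of Hsp90b1 (27.2 to 71.2 CPM) and of Slc25a3 (46.3 to 125 CPM) are dark dCre libraries of lines E1 and E123.

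The libraries with the lowest Hsp90b1 and Slc25a3 also stood apart in how much of their RNA came from long genes. A length index was computed for each library as the mean log2 CPM of protein-coding genes in the top quartile of gene span minus that of the bottom quartile. It was 4.51 and 4.49 in dark dCre replicates 1 and 2 of line E1 and 4.41 and 4.42 in dark dCre replicates 1 and 2 of line E123, while the means of the other 10 VIP groups lay between 2.30 and 3.44. Libraries of higher index held less Hsp90b1 and Slc25a3 and more Anks1b, as the plot of level by length index shows. With the index as a covariate, Hsp90b1 was at 0.24 and Slc25a3 at 0.12 (both adjusted p = 1.00), Igf1os at −0.70 and Igf1 at −0.51 (both adjusted p = 0.0713), and no gene of the genome was called. With those 4 libraries left out, Hsp90b1 was at 0.40 (adjusted p = 0.414), Slc25a3 at 0.47 (0.385), Igf1os at −0.65 (0.0743) and Igf1 at −0.59 (0.0293), and 3 genes were called in all, none of them a member. The summed VIP markers moved with virus in the same groups: 4111 to 9286.5 CPM with dCre and 10399 to 25922 CPM with Cre in line E1 in the dark, and 2519 to 5278 against 7263 to 8439 CPM in line E123 in the dark. Other marker lists moved in the dark line E1 libraries too: with dCre against Cre, summed somatostatin interneuron markers held 391.6 to 420 against 587 to 1414 CPM, oligodendrocyte markers 88.6 to 104 against 256 to 335 CPM and microglia markers 57.3 to 96.1 against 114 to 223 CPM, without overlap. GABAergic neuron markers went the other way, at 30379 to 35103 against 18573 to 31423 CPM, with overlap. In line E123 in the dark these 4 lists overlapped between dCre and Cre. The part of the markers in these changes was not tested. In pools of nuclei, fewer cells of a type and less RNA per cell cannot be told apart. The length index itself did not overlap between dCre and Cre in line E1 in the dark (3.00 to 4.51 against 2.01 to 2.68). Nor did it in line E123 after light (3.22 to 3.60 against 2.30 to 3.01). In the other single comparisons it overlapped. The part of the index in the gaps of line E123 after light was not tested.

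**Figure D3:**
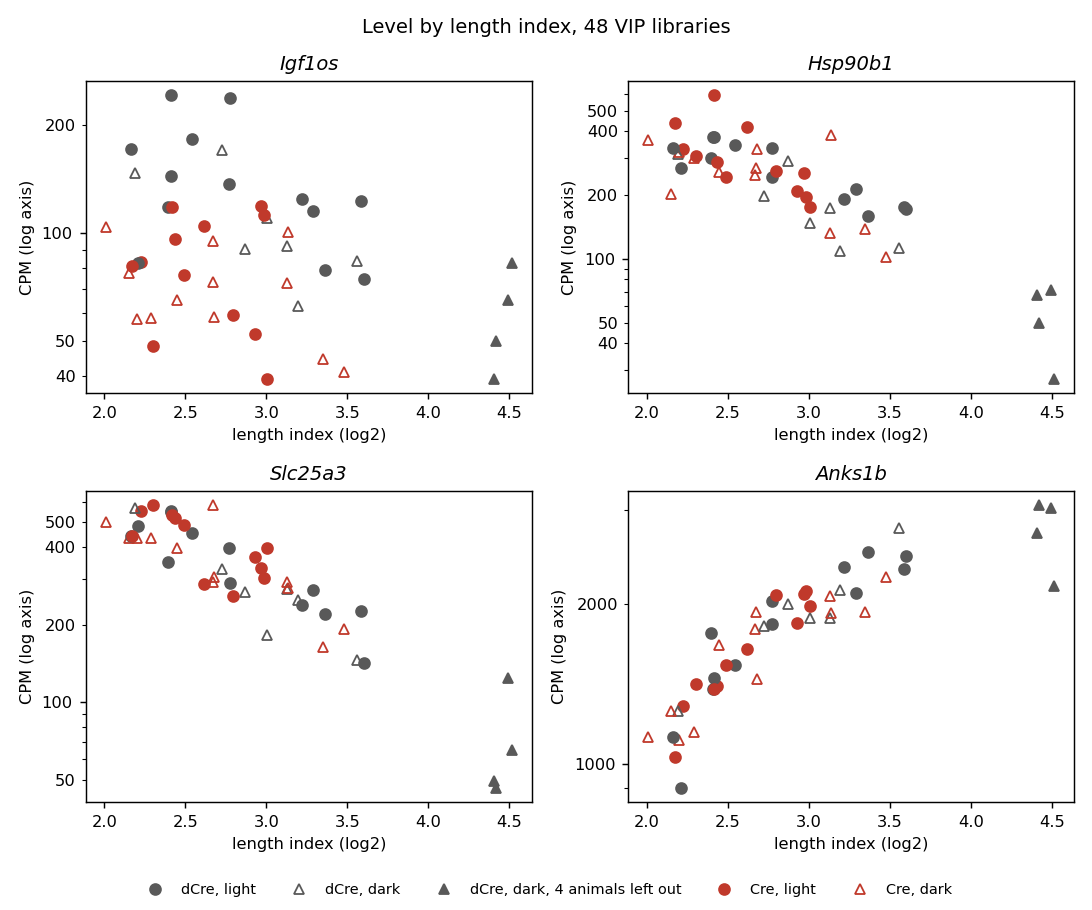
Level of Igf1os, Hsp90b1, Slc25a3 and Anks1b (CPM, log axis) against the length index of each of the 48 VIP libraries; filled triangles are the 4 dark dCre libraries with an index of 4.41 to 4.51. Those 4 hold the lowest Hsp90b1 (27.2 to 71.2 CPM) and Slc25a3 (46.3 to 125 CPM), 39.4 to 82.7 CPM of Igf1os and 2163 to 3074 CPM of Anks1b.

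In the comparison over all lines and light conditions, the window as a whole did not stand out from all genes tested. Those genes, and the rest of chromosome 10, were not held to the rule of 1 CPM. The median SE was 0.23 for the members, 0.32 for all genes and 0.30 for the rest of chromosome 10. The shares thus set genes of unlike precision side by side. There were 3 calls among the 60 members, where 3.74% of all 20585 tested genes were called (2.31% higher and 1.43% lower). At an unadjusted p under 0.05 there were 13 members, or 21.7%, against 20% of all genes. The fitted change was above 0 for 33 of 60 members, with a median of 0.04, against 0.04 for all genes and 0.03 for 819 other tested genes of chromosome 10. For 40 of the 60 members the 95% interval lay wholly above the estimate of Igf1, and for 47 it held 0. The estimate of Igf1 was taken as a fixed number, so the count of 40 does not test differences from Igf1. The members' intervals, not adjusted over genes, reached a median of 0.46 to either side of the estimate. A call after adjustment needed a larger change than that for most members. Tcp11l2 and Gm15344 had larger estimates and were not called. The 4 members whose estimate was at or below that of Igf1 were Gm16268 (−1.60 ± 0.735), Rmst (−1.39), Gm17249 (−1.04) and Cfap54 (−0.75), none of them called.

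**Figure D4:**
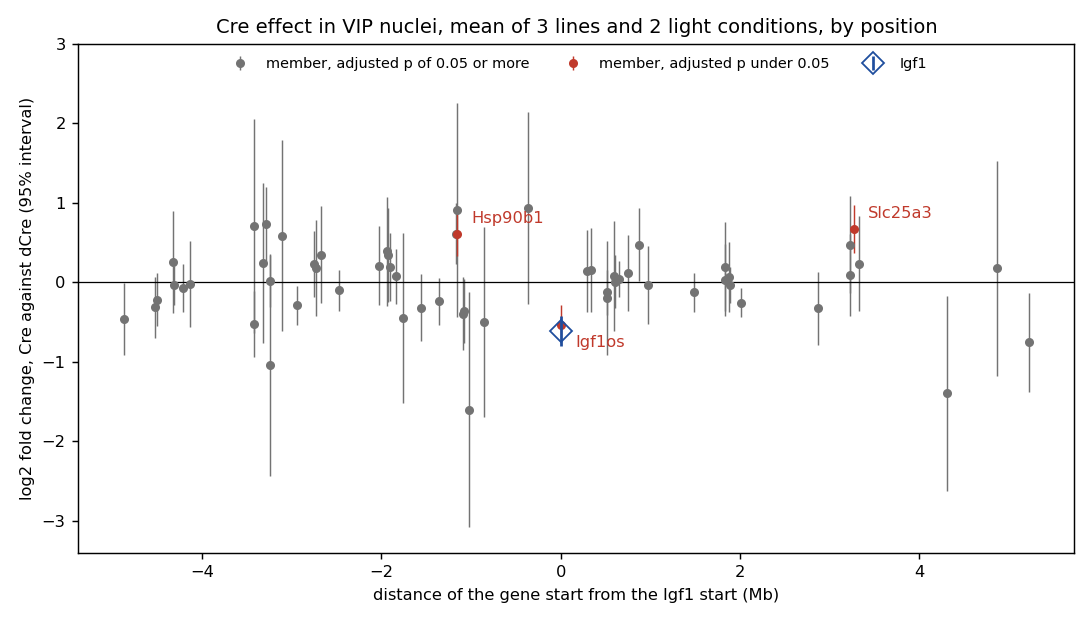
log2 fold change of Cre against dCre in VIP nuclei (mean of 3 lines and 2 light conditions) for the 60 members against distance of the transcription start from that of Igf1 in Mb, with bars for the 95% interval; Igf1 is the open diamond at 0. Estimates scatter around 0 across the window, where the nearest distances hold Igf1os alone. The 3 called members lie at 0.005 Mb (Igf1os), 1.15 Mb upstream (Hsp90b1) and 3.27 Mb downstream (Slc25a3).

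Over the window of about 5 Mb to either side, distance from Igf1 did not order the changes. No member lies between Igf1os, at 0.005 Mb and called lower, and Nup37, at 0.289 Mb. A change limited to the closest genes could therefore not be seen beyond Igf1os. The 4 members under 0.5 Mb had a median change of 0.15, the 9 between 0.5 and 1 Mb one of 0.01, the 18 between 1 and 2 Mb one of 0.05 and the 29 farther out one of 0.02. Across the 60 members the correlation of the change with log2 distance was 0.02, given as a description, since neighbours share libraries. Cfap54 is counted by its start coordinate, but it is read from the minus strand and its transcription start lies 5.22 Mb away.

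Genes near Igf1 gave these values. Upstream are Stab2, a scavenger receptor for hyaluronan (2.53 CPM with Cre and 3.11 with dCre on average; −0.50 ± 0.598), its antisense neighbour Gm16268, and Nt5dc3, a nucleotidase-domain gene (33.7 and 43.8 CPM; −0.36 ± 0.202). Downstream, Nup37, a subunit of the nuclear pore, lies 0.289 Mb from Igf1 and held 0 to 29.7 CPM with Cre (median 9.83) and 3.63 to 19.4 CPM with dCre (median 10.6), a change of 0.15 ± 0.256 (adjusted p = 0.864). Washc3, a subunit of the endosomal WASH complex at 0.343 Mb, held 1.04 to 32.2 CPM with Cre (median 12.9) and 2.73 to 38.8 CPM with dCre (median 11.7), a change of 0.15 ± 0.262 (adjusted p = 0.860). Dram1, a lysosomal membrane protein gene at 0.521 Mb, changed by −0.19 ± 0.358. None of these was called, and for Nup37 and Washc3 the Cre and dCre ranges covered nearly the same levels. In the comparison over all lines, Igf1os was the one called member within 1 Mb.

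By role, none of the members listed as neuronal and synaptic was called over all lines, and all of them had estimates below 0 there. This list holds 7 members, Anks1b, Syn3, Btbd11, Ano4, Nuak1, Slc41a2 and Rmst, with a median change of −0.25. Of the 7, 3 had an unadjusted p under 0.05, against 20% of all genes. The list was drawn up with earlier results known. Slc41a2, a solute carrier gene, could stand with the metabolic and membrane traffic members instead. Rmst averaged 9.73 CPM in VIP and 59.5 CPM in total nuclei with dCre. In line E23, averaged over light and dark, 6 of the 7 were above 0 (median 0.28). With the length index as a covariate, Anks1b (0.0046), Ano4 (0.15), Btbd11 (0.25) and Nuak1 (0.064) stood above 0 over all lines. All 7 span more than the members' median of 47.1 kb. Anks1b, a scaffold protein of the postsynaptic density and the most abundant member per length (126 CPM per kb of exon in VIP nuclei), held 899 to 3074 CPM with dCre (median 2009) and 1028 to 2249 CPM with Cre (median 1656), a change of −0.25 ± 0.0910 (adjusted p = 0.0939). Nuak1, a kinase of axon branching, held 10.6 to 176 CPM with dCre and 11.7 to 104 CPM with Cre (−0.52 ± 0.209, adjusted p = 0.135). The ranges overlapped for both.

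All 5 members of the transcription list, Cry1, Prdm4 and Rfx4 among them, had estimates above 0 (median 0.39) and none was called or had an unadjusted p under 0.05. Of 16 metabolic, secretory and membrane traffic members, Hsp90b1 and Slc25a3 were called higher, and the median was −0.05. Of 15 nuclear, RNA and cell division members, 13 had estimates above 0 (median 0.15), against 53.1% of all genes, and none was called. Tcp11l2 came closest (0.74 ± 0.233, adjusted p = 0.0562). In line E1, averaged over light and dark, 7 of these 15 and 3 of the 5 on the transcription list were above 0. In line E23 the counts were 8 of 15 and 5 of 5. Among the 10 long noncoding members, Igf1os was called and the median was −0.39. Gm15344, at 0.62 ± 0.191 (adjusted p = 0.0537), lies inside Hsp90b1 on the same strand with 84 bp of shared exon, so its counts are not separable from those of Hsp90b1. Nt5dc3 shares 1228 bp of exon with the member Gm49358 on the same strand, so reads over those bases cannot be assigned to either gene. In all, 29 members overlap another gene of the window or Igf1, 24 of them by exons.

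Over all lines, longer members had lower estimates than shorter ones, most clearly in line E1 in the dark. Split at the median span of 47.1 kb, the 30 longer members had a median change of −0.12, with 9 above 0, and the 30 shorter a median of 0.20, with 24 above 0. The correlation of the change with log2 span across members was −0.34 over all conditions and −0.46 in line E1 in the dark, given as a description. In the other 5 single comparisons it lay between −0.15 and 0.15.

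Line E1 had most of the calls of single lines. Averaged over light and dark, 4 members passed in line E1, where 1.57% of all genes did (0.928% higher and 0.646% lower): Hsp90b1 at 0.92 (adjusted p = 0.0365), Slc25a3 at 1.03 ± 0.259 (0.0363), Ric8b at −0.77 ± 0.208 (0.0447) and Rmst (0.0268). Ric8b, a chaperone of stimulatory G protein alpha subunits, held 138, 110, 105, 80.0 and 98.2 CPM with dCre and 108, 85.8, 64.3 and 43.5 CPM with Cre after light. In the dark it held 151, 225 and 81.0 CPM with dCre and 64.7, 80.7, 80.8, 87.0 and 54.99 CPM with Cre. The groups overlapped in both, narrowly in the dark. These calls rested on single libraries: none remained without light dCre replicate 1, dark dCre replicate 1, light Cre replicate 2 or dark Cre replicate 4 of the line. Between 1 and 2 remained without light dCre replicate 5, dark dCre replicate 2, light Cre replicate 3 or 4, or dark Cre replicate 1 or 3, and 11 members passed without dark dCre replicate 3.

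Rmst, a long noncoding RNA of neurogenesis 4.31 Mb from Igf1, was near the detection limit in VIP nuclei of line E1. In the dark it had 0 counts in 5 of 5 Cre libraries, and 3.60, 0 and 8.50 CPM with dCre. The dCre counts thus came from 2 of 3 libraries. After light it had 4 counts in all over 4 Cre libraries, 3 of them at 0, and 8.16, 6.96, 1.97, 1.01 and 2.68 CPM with dCre. In line E23 in the dark the order was the other way, with 4.6, 11.5, 0 and 0 CPM with Cre and 0.698, 0, 0 and 0 CPM with dCre. Rmst held 18.4 to 141 CPM in each total library.

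In line E1 in the dark, 10 members were called, where 9.18% of all genes were (5.09% higher and 4.09% lower), and 17 had an unadjusted p under 0.05, against 25.6% of all genes. Besides Hsp90b1, Slc25a3, Gm15344 and Rmst these were Tcp11l2 (2.43 ± 0.645, adjusted p = 0.0131) and Arl1, a GTPase of the Golgi (2.12 ± 0.618, 0.0231), which rose. Anks1b (−0.72 ± 0.224, 0.0344), Ano4, an anoctamin membrane protein (−0.92 ± 0.301, 0.0442), Ric8b (−1.04 ± 0.301, 0.0217) and Nt5dc3 (−1.54 ± 0.492, 0.0388) fell. Tcp11l2 stood at 1.97, 6.15 and 4.59 CPM with dCre and at 56.2, 10.4, 7.39, 18.6 and 20.8 CPM with Cre. Anks1b stood at 2163, 3036 and 1877 CPM with dCre and at 1440.3, 1789, 1148, 1122 and 1669 CPM with Cre. Neither gene's groups overlapped. Nt5dc3 stood at 118, 60.3 and 12.1 CPM with dCre and at 18.9, 21.9, 43.3, 11.4 and 13.7 CPM with Cre, and 1 dCre library lay within the Cre range. Of the 3 dCre libraries behind these calls, 2 are the ones with a length index of 4.51 and 4.49, and no member was called without them, with the index as a covariate or without dark dCre replicate 1 alone. Without dCre replicate 2, 3 members were called, and without Cre replicate 1 or 5, 6 were.

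In the other single comparisons no member passed. edgeR called no member in line E1 after light, line E23 after light or in the dark, or line E123 after light or in the dark, and 0% of all genes in each. At an unadjusted p under 0.05 there were 3, 3, 3, 6 and 9 members in that order, against 5.32%, 6.12%, 6.08%, 8.73% and 8.72% of all genes. DESeq2 called none in the first 4 and 1, Slc25a3, in line E123 in the dark. Averaged over light and dark, edgeR called no member in line E23 (0% of all genes; 1 member at an unadjusted p under 0.05, against 6.28% of all genes; none by DESeq2). It also called none in line E123 (0.0389% of all genes, 0.0291% higher and 0.00972% lower; 15 members at an unadjusted p under 0.05, against 15.1% of all genes), where DESeq2 called 5, Chst11, Gnptab, Hsp90b1, Slc25a3 and Tmem263. In line E123, Slc25a3 alone was called when 1 of 9 libraries was left out of the average, and, in the dark, without dCre replicate 4.

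Between Cre and dCre libraries of line E123 after light, 3 members lay wholly above (Rtcb, Slc25a3 and Tmem263). Wholly below lay 5 (Igf1os, Anks1b, Gnptab, Scyl2 and Gm16235), where 3.07% and 2.99% of all genes lay above and below. The length index of these Cre libraries lay wholly below that of the dCre libraries too. In the dark, Ikbip and Mybpc1 lay wholly above and Cfap54, Chst11, Gm17249, Nuak1, Syn3 and Timp3 wholly below (3.94% and 5.03% of all genes). In line E1 in the dark there were 5 above and 4 below (8.18% and 5.88%), in line E23 in the dark Fbxo7 alone above (0.738%), and after light none in line E1 or E23. Over the 6 single comparisons, Cfap54, a gene of motile cilia, had an estimate below 0 in 6 of 6 (−1.19 to −0.03), Gm15344 had one above 0 in 6 of 6, and 10 members, among them Igf1os, Anks1b, Nuak1 and Ric8b, had 5 of 6 below 0.

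**Figure D5:**
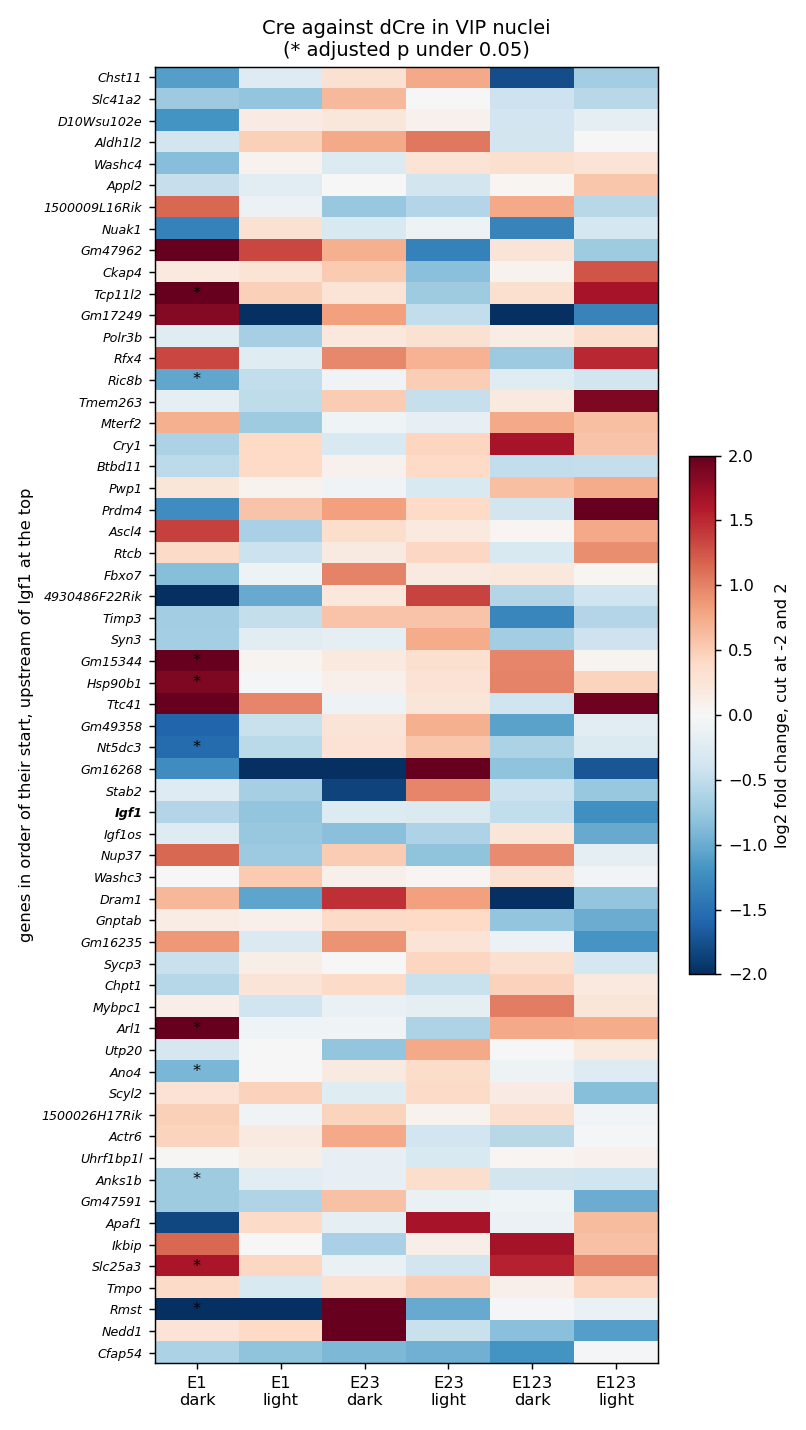
log2 fold change of Cre against dCre in each of the 6 single comparisons of VIP nuclei for the members whose values are reported, with Igf1 beside them; an asterisk marks an adjusted p under 0.05. The asterisks stand in line E1 in the dark, and the estimates of Slc25a3 are below 0 in line E23 and above 0 in line E123.

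No member's Cre effect was called as different between lines, averaged over light and dark, or between light and dark, averaged over lines. edgeR called no member for line E123 minus E23 or E123 minus E1 (0% of all genes each), E23 minus E1 (0.0486%) or light minus dark (0.00486%). At an unadjusted p under 0.05 there were 10, 5, 16 and 8 members in that order, against 12.6%, 4.52%, 15.4% and 9.28% of all genes, and DESeq2 called 2, 0, 2 and 0. The largest line difference of Slc25a3 was 1.501 ± 0.370 for line E123 minus E23 (adjusted p = 0.216). Without dark dCre replicate 3 of line E1, 8 members were called for E23 minus E1 and 2, Gm15344 and Hsp90b1, for light minus dark. Rmst alone was called for E23 minus E1 without dark dCre replicate 3 of line E123, or without dark dCre replicate 1 or dark Cre replicate 3 of line E23.

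In dCre VIP nuclei, 1 h of light changed 6 members, where 6.27% of all genes were called (3.97% higher and 2.3% lower). Hsp90b1 rose by 1.11 ± 0.196 (adjusted p = 0.000476), Slc25a3 by 0.92 ± 0.215 (0.00837), Gm15344 by 1.16 (0.00964), 1500009L16Rik by 1.34 (0.0298) and Igf1os by 0.67 ± 0.178 (0.0190). Apaf1, the core of the apoptosome, fell by 1.497 ± 0.370 (adjusted p = 0.0115). Igf1 rose by 0.53 ± 0.136 (adjusted p = 0.0146). Apaf1 averaged 44.2 ± 18.4 CPM in the dark and 15.2 ± 6.16 after light in line E1, 24.3 ± 7.49 and 12.6 ± 5.89 in line E123, and 23.2 ± 10.4 and 5.70 ± 4.74 in line E23. The dark dCre libraries here are the same as in the Cre comparisons, including the 4 of high length index; without those 4, or with the index as a covariate, no member was called, and Igf1os stood at 0.45 (adjusted p = 0.548) and 0.46 (0.379).

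Igf1os was far higher in VIP than in total nuclei, as Igf1 was. In VIP nuclei it had 97 to 2370 counts per library (median 450) and was never at 0, and in total nuclei 0 to 71 counts, with 18 of 48 libraries at 0. In dCre libraries it averaged 118 CPM in VIP and 1.09 ± 1.84 CPM in total nuclei, a log2 difference of 6.95 ± 0.456, against 6.31 for Igf1. Of the 60 members, 19 differed between fractions, 12 higher and 7 lower in VIP nuclei, where 28.9% of all genes did (12.1% higher and 16.8% lower). Btbd11, a protein of interneuron synapses, was higher by 3.55 (413 ± 154 against 42.4 ± 31.7 CPM), and Mybpc1, named for its myosin-binding role in muscle, by 3.30 (43.1 ± 44.1 against 4.96 ± 5.75 CPM). Ano4 was higher by 1.39. Rmst was lower by 3.50 on the log2 scale and Rfx4, a transcription factor of radial glia and astrocytes, by 1.77.

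In total nuclei, where most cells carry no Cre, edgeR called no member between Cre and dCre (0.0283% of all genes). At an unadjusted p under 0.05 there were 15 members, against 10.6% of all genes, and DESeq2 called Gm15344. The smallest adjusted p was 0.164, for Gm15344 (0.51) and for Timp3 (−0.64), an inhibitor of matrix metalloproteinases. Hsp90b1 changed by 0.34 ± 0.105 (adjusted p = 0.259) and Slc25a3 by 0.31 (0.383), with 63.6 to 407 CPM of Hsp90b1 in dCre and 139 to 419 CPM in Cre libraries. Both had the same sign as in VIP nuclei, and 4 members were called without the total library of dark dCre replicate 3 of line E1. Whether same-numbered VIP and total libraries share an animal is not given, so the fractions cannot be taken as independent. Igf1os had too few counts for a change to be detectable there (0.37 ± 0.864).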

How the data were processed

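The authors deposited raw read counts per gene for 96 libraries, 48 of VIP and 48 of total nuclei, and this table is the only one used. Per the labels' protocols, libraries were made from 50 to 100 sorted nuclei with poly(A)-primed cDNA, 17 cycles of PCR and tagmentation, which marks neither strand nor single molecules. The submitters' processing notes name cutadapt 1.18, STAR 2.5.3a, HOMER 4.9.1 and the mm10 build; the annotation and strand setting are not given in the sources used here. Of 55335 gene identifiers, 55154 were matched to GENCODE on the same build, which gave symbols, positions and lengths, and 181 with 0.0225% of the counts were not.

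Counts were fitted with edgeR 4.0.16 (R 4.3.3; quasi-likelihood test, TMM, default low-count filter by group, robust, 1 coefficient per group), separately for VIP nuclei (20585 genes), total nuclei (21213) and both fractions of dCre libraries (20572). P-values were adjusted over all genes by the Benjamini-Hochberg method, with a call at an adjusted p under 0.05. Each comparison over lines or light conditions is the equally weighted mean of its groups. Standard errors are approximate, taken as log2 fold change over the root of the F statistic. CPM are on TMM library sizes. VIP libraries had a median of 4539692.5 counts. edgeR put the biological coefficient of variation at 0.815 (VIP) and 0.679 (total). Among 148 pairs of same-group libraries, none agreed within sampling noise.

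The members and lists were chosen with earlier results of these data known, as were the tests. Named genes are members called in a comparison, those with the smallest p, the nearest to Igf1, those at the edges of the CPM rule and the most abundant. The values of 1 member are not reported here. On simulated counts of 19648 genes, the overall VIP comparison recovered 37 of 98 genes with a 2-fold and 68 of 94 with a 4-fold change. At 10 CPM or more it recovered 35 of 46 and 56 of 57. It also called 21 unchanged genes, a larger share of its calls than an adjusted p under 0.05 allows. In this 1 simulation the threshold was thus too lenient for that comparison. The average of line E123 recovered 10 of 98 and 45 of 94, with 0 unchanged genes called. Alternatives were DESeq2 1.42.0, total counts without scaling, no filter, sex or the length index as a covariate, a replicate block, libraries of 1 line only, and leaving out libraries. Promoter sequences are from RefSeq (GRCm38.p6).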

Additional observations from a re-analysis of the deposited data

Results flagged for a closer look

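Groups of 4 or 5 VIP libraries were examined for members called in a comparison of Cre with dCre. In 8 of 110 such groups, 1 library lay far from the others. Chance gives about 1 in 20 for normally distributed values, and whether these CPM are so distributed was not tested. Tcp11l2 stood at 56.15 CPM in dark Cre replicate 1 of line E1, above the other 4, and at 9.001 CPM in light dCre replicate 2 of line E123. Arl1 stood at 25.15 CPM in dark dCre replicate 4 and at 50.16 CPM in light Cre replicate 3 of line E123. Ano4 stood at 563.9 CPM in dark Cre replicate 2 and Gm15344 at 23.49 CPM in light Cre replicate 2 of line E1. Rmst stood at 1.101 CPM in light Cre replicate 4 of line E1 and at 0.698 CPM in dark dCre replicate 1 of line E23. Each was the only library of its group above 0, which meets the rule at any level.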

How the results depend on the processing

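Counts of called members moved as follows, given as the main count, then the alternative. Over all lines, 3 became 6 with DESeq2 or no filter, 5 with total counts only, and 0 with the length index as a covariate or without the 4 dark dCre libraries of high index. For line E1, 4 became 8 with DESeq2 and 0 with the index or without the 4 libraries. For line E123, 0 became 5 with DESeq2, 2 without filter and 1 with sex as a covariate. For line E1 in the dark, 10 became 6 with total counts only and 0 with the index or without the 4 libraries, which leaves 1 dCre library, assumed to vary like the others. For line E123 in the dark, 0 became 1 with DESeq2 or no filter. For line E123 minus E23, 0 became 2 with DESeq2 and 1 without filter. For E123 minus E1 it became 1 without filter, and for E23 minus E1 2 with DESeq2 and 3 without filter. The light comparison went from 6 to 0 with the index or without the 4 libraries, and total nuclei from 0 to 1 with DESeq2 and 2 without filter. The cause was not tested. Leaving out 1 library at a time gave 1 to 6 over all lines, 0 to 11 for line E1, 0 to 15 for line E1 in the dark, 0 to 1 for line E123 and for line E123 in the dark, 0 to 8 for E23 minus E1, 0 to 2 for light minus dark and 0 to 4 in total nuclei. The overall count was 1 (Igf1os) without dark Cre replicate 3 of line E123. It was 6 without dark dCre replicate 3 of line E1 or light Cre replicate 1 of line E23, and 5 without dark dCre replicate 4 of line E123 or dark Cre replicate 1 of line E23.

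Deviations from group means were correlated between libraries. Same-numbered Cre and dCre libraries had a median of 0.025, with 3 of 22 over 0.1, and differently numbered ones −0.012, with 1 of 73. Same-numbered VIP and total libraries of dCre had a median of 0.051, with 6 of 24 over 0.1. Differently numbered ones had −0.013, with 3 of 74. VIP and total libraries of the same number thus ran together in part, and the labels do not say whether they share an animal. The main test of VIP against total nuclei did not use the number. The length index also ran together in same-numbered dark dCre libraries, at 4.51, 4.49 and 3.00 in VIP and 3.96, 4.04 and 2.71 in total nuclei of line E1. With the replicate number as a block, 20 members differed between VIP and total nuclei, against 19 without. With a replicate block, 2 members were called in line E1, 3 in line E123, 3 in line E1 in the dark, 1 in line E123 in the dark, 1 for E123 minus E23, 1 for E23 minus E1 and 4 over all lines.

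Of 371 alternatives for 51 results of single genes, 284 kept direction and call, 61 lost the call, 10 gained it and 16 turned the direction. With the length index as a covariate, Anks1b was at 0.0046, Ano4 at 0.15, Arl1 at −0.23, Btbd11 at 0.25, Nt5dc3 at 0.36, Nuak1 at 0.064 and Ric8b at 0.096 over all lines. In line E1 in the dark, Anks1b was at 0.12, Ano4 at 0.022, Nt5dc3 at 0.76, Ric8b at 0.18 and Slc25a3 at −0.12. Without the 4 libraries, Ano4 was at 0.029, Nt5dc3 at 0.14 and Nup37 at −0.093 over all lines, and Nt5dc3 at 0.85 in line E1 in the dark. Over all lines, the members' intervals, not adjusted over genes, reached a median of 0.46 on the log2 scale to either side of the estimate. Averaged over light and dark, this median was 0.80 in line E1, 0.79 in line E23 and 0.83 in line E123. In the single comparisons it lay between 1.06 (line E1 after light) and 1.24 (line E123 in the dark). Changes smaller than these were below what the counts of many members could show. A call after adjustment needed still larger changes for most members.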
